A study of Homo sapiens with 14 samples.

Results

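MDA-MB-231 is an established human cell line from a triple-negative, mesenchymal-like breast cancer. RNA of these cells was measured after siRNA against YAP1 (YAP) and WWTR1 (TAZ) with 2 siRNA mixes, each for 48 h, and after a control siRNA. The comparison uses 6 of the 14 libraries of the series, 2 with YAP/TAZ siRNA mix 1, 2 with mix 2 and 2 with control siRNA. They were chosen by their column names in the deposited table. Both mixes were given equal weight, and a gene was followed where it went the same way with mix 1 alone and with mix 2 alone. Proliferation genes and the classic readouts CTGF, CYR61 and ANKRD1 were set aside when genes were ranked, so the text is mostly about the rest of the response. Counts outside the proliferation list still include these readouts and the siRNA targets YAP1 and WWTR1. The sources used here give neither the siRNA sequences of a mix nor the harvest time of the control siRNA. JQ1 (1 µM for 24 h) against its solvent DMSO, 2 libraries each, is used for genes named from the YAP/TAZ comparison, and so are 4 libraries with siRNA mixes against the BRD genes for 72 h. All cells were the same line in the same medium, and the siRNA groups were transfected with the same reagent.

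YAP and TAZ are transcriptional co-activators with no DNA-binding domain of their own. When the Hippo kinases are inactive they enter the nucleus and bind TEAD factors, often at enhancers that also carry AP-1 sites, and in cancer cells they sustain growth, survival and matrix remodelling. BET proteins read acetylated histones and pass the signal on to RNA polymerase II, and JQ1 displaces them from chromatin. By its title, the series asks how far transcription that depends on YAP and TAZ needs BET proteins.

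Libraries were made from total RNA after removal of ribosomal RNA, and the 6 libraries held 15741695 to 23049093 reads in genes. Values are the deposited scaled RPM (reads per effective library size, set by the authors), and a log2 fold change is a difference of log2(value + 1), which understates the change of genes of low level. A gene is called with each mix where the limma adjusted p was under 0.05 with mix 1 alone and with mix 2 alone, in the same direction. It is called at least 2-fold where the log2 fold change also reached 1 in size with each mix. Nothing in the labels says that replicates were separate cultures, and the p-values therefore rest on a spread within pairs of libraries that may be technical only. In bulk RNA, fewer cells of a kind and less RNA per cell cannot be told apart.

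The targeted transcripts were low in every library labelled with YAP/TAZ siRNA. YAP1 was at 24.2 and 22.4 scaled RPM with mix 1 and 21.3 and 18.6 with mix 2, against 190.03 and 174 with control siRNA, and WWTR1 was at 15.3 and 17.2 scaled RPM with mix 1 and 12.8 and 12.7 with mix 2, against 135 and 126 with control siRNA. The groups did not overlap for either gene, and both mixes lowered both transcripts (YAP1 -2.91 with mix 1 and -3.13 with mix 2; WWTR1 -2.94 with mix 1 and -3.26 with mix 2 on the log2 scale). The classic readouts were lower with each mix, and more so with mix 1. CTGF was at -4.77 with mix 1 and -2.903 with mix 2, CYR61 at -4.55 and -2.92, and ANKRD1 at -5.06 and -3.78. Of 5 tested markers known to be high in this line (VIM, CD44, AXL, CAV1 and MSN), AXL and CAV1 were lower with each mix, at least 2-fold, and 0 higher. Of 3 known to be low (GATA3, EPCAM and FOXA1), FOXA1 was higher with each mix and 0 lower. VIM (vimentin) was at 2982 and 3153 scaled RPM with mix 1 and 3978 and 4116 with mix 2, against 3323 and 3514 with control siRNA, while the luminal factor GATA3 was at 1.25 and 1.53 scaled RPM with mix 1 and 1.44 and 1.15 with mix 2, against 2.08 and 1.44 with control siRNA. ESR1, PGR and CDH1 were not among the genes tested.

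Much of the transcriptome differed between YAP/TAZ siRNA and control siRNA. Of 13674 genes tested, 4144 were higher (30.3%) and 3390 lower (24.8%) with each mix, and 992 (7.25%) were called in opposite directions. Of all genes, 4872 had all 4 knockdown libraries above both control libraries (35.6%) and 3979 had them below (29.1%). At least 2-fold with each mix, 777 genes were higher (5.68%) and 765 lower (5.59%). The written proliferation list held 287 of the 765 lower genes and 1 of the 777 higher ones, which leaves 478 lower and 776 higher genes outside it. The mixes often differed in size: among the 478 lower genes the mixes differed for 277 (limma adjusted p under 0.05 for mix 1 against mix 2), 121 with the larger fall with mix 1 and 156 with mix 2. Among the 776 higher genes they differed for 488, 131 larger with mix 1 and 357 with mix 2. Genes were therefore ranked by the weaker of their 2 log2 fold changes. With the DMSO libraries in place of control siRNA, 972 genes outside the proliferation list were at least 2-fold lower and 1537 higher, edgeR gave 1312 higher genes, and with a pseudocount of 4 there were 402 higher genes.

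**Figure D1:**
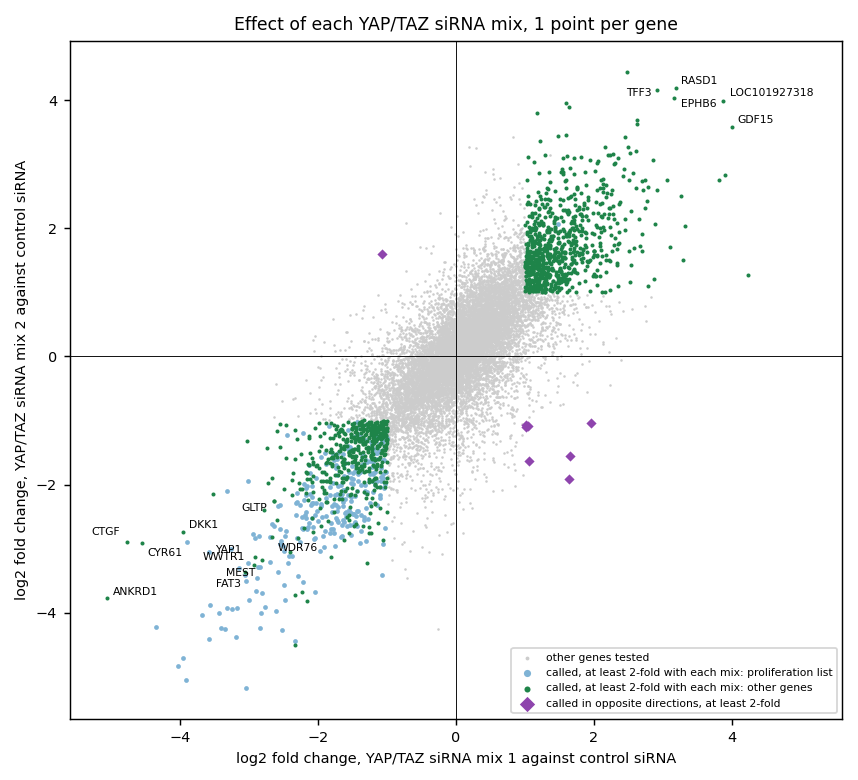
Each point is 1 of the 13674 genes tested, with its log2 fold change for YAP/TAZ siRNA mix 1 against control siRNA on the x axis and for mix 2 on the y axis. Green points are the 478 lower and 776 higher genes called at least 2-fold with each mix outside the proliferation list, light blue points are proliferation genes, and purple diamonds are the 8 genes called at least 2-fold in opposite directions.

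The 15 genes that fell most with both mixes outside the proliferation list are described first, starting with FAT3, DKK1 and PLAU and not in order of rank. FAT3, an atypical cadherin of the FAT family, had 5.83 and 4.39 scaled RPM with mix 1 and 4.59 and 3.304 with mix 2, against 53.02 and 46.5 with control siRNA. All 4 knockdown libraries lay below both control libraries, as the naming rule required of every gene it took, list members included, and FAT3 had the largest fall in the weaker mix of all genes taken by the naming rule (-3.06 with mix 1 and -3.37 with mix 2). DKK1, a secreted antagonist of Wnt signalling, had 20.3 and 21.3 scaled RPM with mix 1 and 47.4 and 51.7 with mix 2, against 356 and 318 with control siRNA. Its fall (-3.95 with mix 1 and -2.74 with mix 2; mean of the mixes -3.35, SE 0.0659, limma adjusted p = 7.81e-20) was larger with mix 1, where the values were below those with mix 2. PLAU, the urokinase-type plasminogen activator that starts plasmin formation at the cell surface, had 163 and 176 scaled RPM with mix 1 and 62.9 and 65.6 with mix 2, against 809.7 and 911 with control siRNA. For PLAU the larger fall came with mix 2 (-2.34 with mix 1 and -3.72 with mix 2; limma adjusted p = 1.41e-13 for mix 1 against mix 2), and the groups did not overlap.

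GLTP, a protein that carries glycolipids between membranes, had 17.1 and 18.7 scaled RPM with mix 1 and 18.6 and 18.2 with mix 2, against 114 and 111 with control siRNA. GLTP fell with each mix (-2.59 with mix 1 and -2.55 with mix 2), and no difference between the mixes was called (mix 1 minus mix 2 -0.04, SE 0.0663, limma adjusted p = 0.607). The survival factor BCL2 had 1.13 and 1.28 scaled RPM with mix 1 and 1.91 and 1.84 with mix 2, against 14.9 and 13.4 with control siRNA, a range without overlap (-2.78 with mix 1 and -2.399 with mix 2, limma adjusted p = 2.93e-15 for the mean of the mixes). With a pseudocount of 4 in place of 1 the fall of BCL2 read -1.72. DDAH1, which breaks down the nitric oxide synthase inhibitor dimethylarginine, had 33.8 and 35.7 scaled RPM with mix 1 and 6.63 and 7.34 with mix 2, against 187 and 172 with control siRNA. DDAH1 fell with each mix, but more with mix 2 (-2.34 with mix 1 and -4.4998 with mix 2; limma adjusted p = 8.42e-17 for the difference). AEN, an exonuclease known as a p53 target, showed the same order (-2.23 with mix 1 and -3.68 with mix 2).

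MEST, an imprinted gene of the alpha/beta hydrolase fold family, fell by 2.81 with mix 1 and 3.18 with mix 2. EFEMP1, a fibulin of the extracellular matrix, had 12.3 and 12.7 scaled RPM with mix 1 and 17.1 and 16.2 with mix 2, against 86.1 and 81.1 with control siRNA, a log2 fold change of -2.45 (SE 0.0681, limma adjusted p = 1.09e-17). DDX21, an RNA helicase of the nucleolus, had 115 and 120.1 scaled RPM with mix 1 and 78.8 and 80.1 with mix 2, against 619 and 536 with control siRNA. TBC1D2, which acts on Rab GTPases, had 12.3 and 13.7 scaled RPM with mix 1 and 15.6 and 14.96 with mix 2, against 71.03 and 73.02 with control siRNA. The log2 fold changes of these 3 genes were -2.64 with mix 1 and -2.26 with mix 2 for EFEMP1, -2.29 with mix 1 and -2.84 with mix 2 for DDX21 and -2.38 with mix 1 and -2.17 with mix 2 for TBC1D2. WDR76, a WD-repeat protein, FLG (filaggrin, a keratin-binding protein of the epidermis), SMIM13 and C4orf46 complete the 15, with weaker-mix log2 fold changes of -2.67, -2.41, -2.21 and -2.17.

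Of the 15 genes that rose most with both mixes, GDF15, AGR2 and SOX4 are described first, not in order of rank. The largest rise in the weaker mix among the 15 was that of LOC101927318 (3.87), described further below. GDF15, a stress-induced cytokine of the TGF-beta superfamily, had 62.8 and 71.3 scaled RPM with mix 1 and 48.8 and 51.4 with mix 2, against 2.77 and 3.79 with control siRNA. All knockdown libraries lay above both controls, and the log2 fold change was 3.998 with mix 1 and 3.59 with mix 2. AGR2, a protein disulfide isomerase of the endoplasmic reticulum that helps fold mucins, had 228 and 210.2 scaled RPM with mix 1 and 223 and 219.6 with mix 2, against 30.4 and 33.6 with control siRNA. SOX4, a transcription factor of the SOX family, had 295 and 284 scaled RPM with mix 1 and 309 and 287 with mix 2, against 41.8 and 46.3 with control siRNA. AGR2 rose by 2.74 with mix 1 and 2.75 with mix 2 and SOX4 by 2.69 with mix 1 and 2.73 with mix 2, with no overlap between the groups. Mix 1 minus mix 2 was -0.02 (SE 0.0811) for AGR2 and -0.04 (SE 0.0725) for SOX4, and neither passed (limma adjusted p = 0.876 and 0.6504). Against the DMSO libraries, with 5.51 and 5.08 scaled RPM of AGR2 and 12.4 and 11.8 of SOX4, the log2 fold changes read 5.14 for AGR2 and 4.49 for SOX4.

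RASD1, a Ras-related GTPase first described as induced by dexamethasone, had 86.6 and 98.04 scaled RPM with mix 1 and 190.3 and 181 with mix 2, against 9.11 and 9.33 with control siRNA. EPHB6, an Eph receptor without kinase activity, had 22.9 and 21.6 scaled RPM with mix 1 and 41.2 and 42.2 with mix 2, against 1.39 and 1.87 with control siRNA. Both rose more with mix 2 than with mix 1, RASD1 by 3.19 with mix 1 and 4.19 with mix 2 and EPHB6 by 3.15 with mix 1 and 4.03 with mix 2. NOX5, a calcium-activated NADPH oxidase, had 174 and 173 scaled RPM with mix 1 and 78.2 and 87.2 with mix 2, against 11.9 and 11.02 with control siRNA, and SLC14A1, a urea transporter, had 27.3 and 24.2 scaled RPM with mix 1 and 11.8 and 11.6 with mix 2, against 0.799 and 0.783 with control siRNA. For these 2 genes mix 1 gave the larger rise (3.81 with mix 1 and 2.75 with mix 2 for NOX5, 3.899 with mix 1 and 2.82 with mix 2 for SLC14A1), and no control library reached any knockdown library. PIEZO2, a mechanically gated ion channel, had 28.5 and 28.3 scaled RPM with mix 1 and 26.8 and 24.4 with mix 2, against 3.36 and 3.19 with control siRNA, a rise of 2.78 with mix 1 and 2.64 with mix 2 whose difference between the mixes did not pass (limma adjusted p = 0.3899).

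TFF3, a trefoil peptide of mucous epithelia, rose (2.91 with mix 1 and 4.15 with mix 2), as did RAB37, a small GTPase of secretory granules (2.85 with mix 1 and 3.07 with mix 2), and CALHM3, a channel subunit (2.61 with mix 1 and 2.63 with mix 2). With DMSO as the control these 3 read 5.34, 5.65 and 3.99 for the mean of the mixes. CITED1, a co-regulator that binds CBP and p300, rose by 3.05 with mix 1 and 2.75 with mix 2, PLEKHB1 by 2.62 with mix 1 and 3.62 with mix 2, and ALDH3A1, an aldehyde dehydrogenase, by 2.62 with mix 1 and 3.69 with mix 2. LOC101927318, a locus with no described product in the sources used here, had 15.5 and 15.8 scaled RPM with mix 1 and 16.99 and 17.1 with mix 2, against 0 and 0.301 with control siRNA. It was at or near 0 in both control libraries, so its fitted change (3.87 with mix 1 and 3.98 with mix 2) depends on the pseudocount, and edgeR read 6.803. With a pseudocount of 4, CITED1 read 1.92, SLC14A1 2.17 and LOC101927318 2.29.

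**Figure D2:**
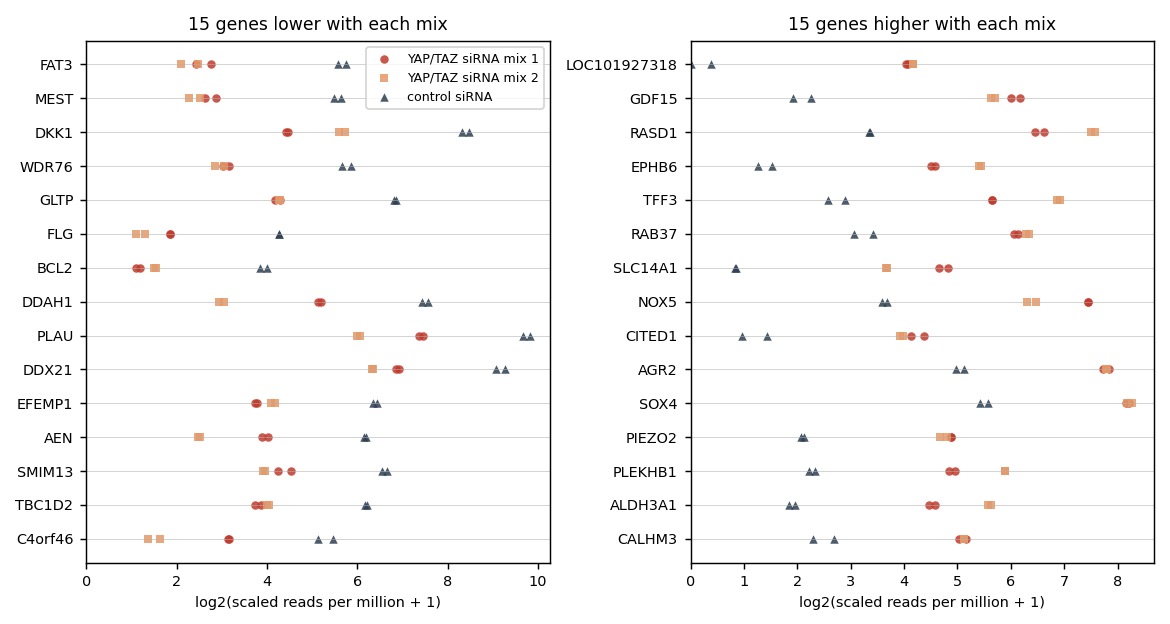
Values of the 15 lower and 15 higher genes in each of the 6 libraries, as log2(scaled RPM + 1) on the x axis. Circles are YAP/TAZ siRNA mix 1, squares mix 2 and triangles control siRNA, 2 libraries each. The naming rule took only genes whose 4 knockdown libraries lie on one side of both control libraries, so that separation is given by the choice. The mixes lie apart from each other for DDAH1, PLAU and TFF3 but together for GLTP, AGR2 and SOX4.

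Promoters of these genes were read from RefSeq (GRCh38.p14), from 250 bases before to 50 bases after the gene start, for the TEAD core GGAATG and the AP-1 core TGANTCA on either strand. These windows exist for 10696 of the 13674 genes tested. The TEAD core lay in 45 of 374 promoters of the lower genes outside the proliferation list (12.03%), in 59 of 585 promoters of the higher genes (10.1%) and in 1165 of all 10696 (10.9%). The AP-1 core lay in 5.08% of the lower set, 5.81% of the higher set and 4.61% of all. Both shares of the lower genes were close to those of all genes tested. Over all 27305 RefSeq promoters of this length the shares were 14.05% and 7.76%. Not all of the 30 genes named above have a window. Among those that do, 8 hold the TEAD core, 3 that fell (DKK1, FLG and DDAH1) and 5 that rose (GDF15, SLC14A1, NOX5, SOX4 and CALHM3). The share of all genes with a window was 10.9%, and a difference of the named genes from it was not tested. The windows of the first 3 in each direction, by the weaker mix, are shown as examples of where the core lies, and in SOX4 and CALHM3 it starts at -178 and -141. Capitals mark the core, written as GGAATG or, where it lies on the other strand, as its reverse complement CATTCC, and positions count from the gene start.

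The window of DKK1, chr10:52314031-52314330 (plus strand), has the core from position -50, that of FLG, chr1:152325190-152325489 (minus strand), from -83, and that of DDAH1, chr1:85578151-85578450 (minus strand), from -218. In FLG the core overlaps a match of TGANTCA. The window of GDF15, chr19:18385908-18386207 (plus strand), has the core from -230, that of SLC14A1, chr18:45723931-45724230 (plus strand), from -201, and that of NOX5, chr15:69014445-69014744 (plus strand), from -143.
DKK1: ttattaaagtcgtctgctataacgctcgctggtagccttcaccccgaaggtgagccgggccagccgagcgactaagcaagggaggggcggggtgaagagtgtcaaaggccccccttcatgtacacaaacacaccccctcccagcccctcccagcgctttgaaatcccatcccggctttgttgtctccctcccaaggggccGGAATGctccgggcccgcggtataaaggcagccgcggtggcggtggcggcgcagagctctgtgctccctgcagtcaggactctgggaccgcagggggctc
FLG: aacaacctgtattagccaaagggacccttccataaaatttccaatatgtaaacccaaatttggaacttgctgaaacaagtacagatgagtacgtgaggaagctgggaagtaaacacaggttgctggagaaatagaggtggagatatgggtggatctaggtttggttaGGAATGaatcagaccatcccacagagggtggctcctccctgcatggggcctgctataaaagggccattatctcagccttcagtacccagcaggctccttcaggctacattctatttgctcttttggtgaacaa
DDAH1: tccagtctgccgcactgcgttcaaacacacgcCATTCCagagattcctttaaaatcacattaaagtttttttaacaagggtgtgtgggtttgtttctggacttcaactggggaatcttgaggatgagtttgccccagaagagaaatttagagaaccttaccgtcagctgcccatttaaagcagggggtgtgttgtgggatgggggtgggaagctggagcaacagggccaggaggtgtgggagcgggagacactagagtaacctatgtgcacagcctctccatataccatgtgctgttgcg
GDF15: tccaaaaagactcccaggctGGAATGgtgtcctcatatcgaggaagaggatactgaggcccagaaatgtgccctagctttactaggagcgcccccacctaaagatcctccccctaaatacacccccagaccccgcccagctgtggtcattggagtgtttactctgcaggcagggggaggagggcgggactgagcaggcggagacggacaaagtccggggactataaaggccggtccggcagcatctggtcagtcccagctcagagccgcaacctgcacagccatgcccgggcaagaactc
SLC14A1: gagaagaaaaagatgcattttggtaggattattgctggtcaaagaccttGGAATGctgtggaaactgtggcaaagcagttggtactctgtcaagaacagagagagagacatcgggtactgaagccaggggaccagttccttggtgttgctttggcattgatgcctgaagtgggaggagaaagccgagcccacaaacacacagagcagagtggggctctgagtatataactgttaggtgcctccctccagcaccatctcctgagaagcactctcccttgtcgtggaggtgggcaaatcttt
NOX5: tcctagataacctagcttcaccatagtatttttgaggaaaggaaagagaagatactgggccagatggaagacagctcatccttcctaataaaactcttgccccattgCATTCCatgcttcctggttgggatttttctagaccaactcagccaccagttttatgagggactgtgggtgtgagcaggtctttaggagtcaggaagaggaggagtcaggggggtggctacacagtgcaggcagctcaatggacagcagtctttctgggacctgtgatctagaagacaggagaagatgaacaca
The letters thus stand in windows of genes of both directions. No window was matched for FAT3, WDR76, EFEMP1, LOC101927318, TFF3, RAB37 and ALDH3A1.

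Genes known as YAP/TAZ targets were next. Of 19 signature genes other than the classic readouts, 11 were lower and 1 higher with each mix (57.9% lower, against 24.8% of all genes), with a median log2 fold change of -0.59 for the mean of the mixes, against 0.07 for all genes. F3, tissue factor, the trigger of coagulation, had 75.6 and 75.5 scaled RPM with mix 1 and 67.4 and 62.2 with mix 2, against 298 and 277 with control siRNA. AMOTL2, an angiomotin that holds YAP at cell junctions, had 35.2 and 36.2 scaled RPM with mix 1 and 45.4 and 47.4 with mix 2, against 163 and 167 with control siRNA. Neither gene overlapped between the groups (-1.91 with mix 1 and -2.13 with mix 2 for F3; -2.18 with mix 1 and -1.81 with mix 2 for AMOTL2), and against the DMSO libraries F3 read -3.14. AXL, a receptor tyrosine kinase, fell more with mix 1 (-1.99 with mix 1 and -1.04 with mix 2), and CRIM1, a membrane protein that binds BMPs, more with mix 2 (-0.96 with mix 1 and -1.95 with mix 2). In the Hippo pathway itself, 13 of 30 genes were lower and 5 higher with each mix (median -0.33). Among 9 junctional inhibitors 6 were lower and 0 higher, which include AMOTL2 and the LIM protein AJUBA (-0.91 with mix 1 and -0.96 with mix 2). TEAD2, one of the DNA-binding partners, was higher, with 41.9 and 41.4 scaled RPM with mix 1 and 47.8 and 46.6 with mix 2, against 18.3 and 22.2 with control siRNA (1.01 with mix 1 and 1.19 with mix 2).

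Secreted proteases and growth factors had members of both directions. Of 29 genes of plasminogen activation and matrix proteolysis, 11 were higher and 6 lower with each mix (37.9% and 20.7%, against 30.3% and 24.8% of all genes). PLAU fell. Inhibitors of metalloproteinases went the other way, with 4 of 5 higher and 0 lower. TIMP4, one of them, had 39.2 and 43.02 scaled RPM with mix 1 and 38.6 and 47.9 with mix 2, against 8.37 and 9.09 with control siRNA, with all knockdown values above both controls (2.11 with mix 1 and 2.18 with mix 2). Of 30 growth factor ligands 8 were higher and 7 lower (26.7% and 23.3%), near the shares of all genes. Another 8 of the 30 were called in opposite directions with the mixes, as were 7.25% of all genes. ANGPT1, a ligand of the endothelial receptor TEK, had 11.2 and 9.45 scaled RPM with mix 1 and 10.8 and 9.82 with mix 2, against 1.81 and 1.08 with control siRNA and rose (2.22 with mix 1 and 2.22 with mix 2). It was near 1 scaled RPM with control siRNA, and with a pseudocount of 4 its log2 fold change was 1.39. PROS1, protein S, also a ligand of the TAM receptors, rose by 2.44 with mix 1 and 2.14 with mix 2. Of 23 cytokines and chemokines 5 were lower and 3 higher (21.7% and 13.04%), but against DMSO 3 were lower and 6 higher, and the list median was 0.27 with mix 1 and -0.32 with mix 2. IL11, an interleukin of the IL-6 family, had 19.9 and 20.1 scaled RPM with mix 1 and 19.5 and 19.1 with mix 2, against 84.3 and 89.8 with control siRNA, a fall without overlap (-2.07 with mix 1 and -2.11 with mix 2; mix 1 minus mix 2 0.05, SE 0.0645). CSF1, the macrophage growth factor, had 732 and 751 scaled RPM with mix 1 and 407 and 418 with mix 2, against 152 and 177 with control siRNA and rose (2.17 with mix 1 and 1.32 with mix 2), and read 3.54 for the mean of the mixes against DMSO. CSF2 was lower with each mix (-1.58 with mix 1 and -2.06 with mix 2), but against the DMSO libraries its log2 fold change was 0.02 (limma adjusted p = 0.852).

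Receptor tyrosine kinases were more often higher than lower. Of 39 written, 29 were tested. Of these, 13 were higher and 1 lower with each mix (44.8% and 3.45%, against 30.3% and 24.8% of all genes), with a median of 0.29. Against DMSO 6 were lower. Eph receptors, which bind ephrins on neighbouring cells, had 4 of 7 higher and 0 lower. EPHB3 had 14.2 and 14.6 scaled RPM with mix 1 and 13.8 and 15.5 with mix 2, against 2.13 and 1.87 with control siRNA, and EPHA4 had 103 and 102 scaled RPM with mix 1 and 69.8 and 69.7 with mix 2, against 19.9 and 20.5 with control siRNA. Both lay above both controls in every knockdown library (2.36 with mix 1 and 2.38 with mix 2 for EPHB3; 2.29 with mix 1 and 1.74 with mix 2 for EPHA4). ERBB3, the kinase-impaired neuregulin receptor, rose by 1.02 with mix 1 and 1.52 with mix 2. CSF1R, the receptor of CSF1 and a marker of macrophages, had 14.1 and 14.4 scaled RPM with mix 1 and 19.7 and 23.3 with mix 2, against 3.25 and 3.61 with control siRNA (1.78 with mix 1 and 2.34 with mix 2). In the list of MAPK feedback and immediate early genes, 11 of 29 were higher and 6 lower (37.9% and 20.7%, against 30.3% and 24.8% of all genes). Dual-specificity phosphatases, which switch MAP kinases off, had 5 of 9 lower and 2 higher, with DUSP10 at -0.996 with mix 1 and -1.31 with mix 2. Of 6 Sprouty family members 3 were higher and 0 lower, with SPRED3 at 1.65 with mix 1 and 1.61 with mix 2. Of 14 immediate early genes 6 were higher and 1 lower. FOSL1, an AP-1 subunit, had 23.1 and 25.4 scaled RPM with mix 1 and 10.2 and 9.68 with mix 2, against 65.97 and 80.7 with control siRNA, below both controls in all 4 knockdown libraries.

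Adhesion and TGF-beta genes were called in the same direction with each mix about as often as other genes. Of 57 genes of integrins, matrix and focal adhesion, 20 were higher and 12 lower with each mix (35.1% and 21.1%, near the 30.3% and 24.8% of all genes). For 13 of the 57 the mixes were called in opposite directions, as were 7.25% of all genes. ITGA1, the alpha subunit of a collagen-binding integrin, had 133 and 121 scaled RPM with mix 1 and 89.1 and 77.6 with mix 2, against 27.4 and 26.97 with control siRNA (2.18 with mix 1 and 1.58 with mix 2), while COL12A1, a fibril-associated collagen, had 30.8 and 29.5 scaled RPM with mix 1 and 33.6 and 34.1 with mix 2, against 116 and 103 with control siRNA (-1.83 with mix 1 and -1.67 with mix 2). The groups did not overlap for ITGA1 or COL12A1. Of 48 TGF-beta and BMP genes 15 were higher and 14 lower (31.3% and 29.2%), also near those shares. LTBP1, which holds latent TGF-beta in the matrix, had 209 and 208 scaled RPM with mix 1 and 152 and 147 with mix 2, against 35.9 and 38.6 with control siRNA, and all 4 of LTBP1 to LTBP4 were higher with each mix. TGFBR1, the type I receptor of TGF-beta, had 33.4 and 30.6 scaled RPM with mix 1 and 47.3 and 48.2 with mix 2, against 126 and 107 with control siRNA, a fall with each mix (-1.83 with mix 1 and -1.27 with mix 2). Among 11 receptors of this family 6 were lower and 4 higher.

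Beside the fall of DKK1, 11 of 25 Wnt genes were higher and 7 lower with each mix, where 30.3% of all genes were higher and 24.8% lower. FZD4, a Wnt receptor, had 43.7 and 42.7 scaled RPM with mix 1 and 41.5 and 41.99 with mix 2, against 10.9 and 10.96 with control siRNA and rose (1.89 with mix 1 and 1.84 with mix 2; mix 1 minus mix 2 0.05, SE 0.0753). The co-receptor LRP5 had 584 and 635 scaled RPM with mix 1 and 720.5 and 725 with mix 2, against 181 and 210.4 with control siRNA (1.64 with mix 1 and 1.88 with mix 2), and LRP6 rose by 0.696 with mix 1 and 0.697 with mix 2. AXIN2, a feedback target of Wnt signalling, rose by 1.05 with mix 1 and 1.59 with mix 2, while the nuclear partner of beta-catenin LEF1 fell by 1.14 with mix 1 and 0.41 with mix 2. Among 16 Notch genes 6 were higher and 1 lower. LFNG, a glycosyltransferase that modifies Notch, had 233 and 239.8 scaled RPM with mix 1 and 498 and 472 with mix 2, against 70.1 and 86.1 with control siRNA, above both controls in every knockdown library. Against the DMSO libraries LRP5 read 3.17 and LFNG 3.84.

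**Figure D3:**
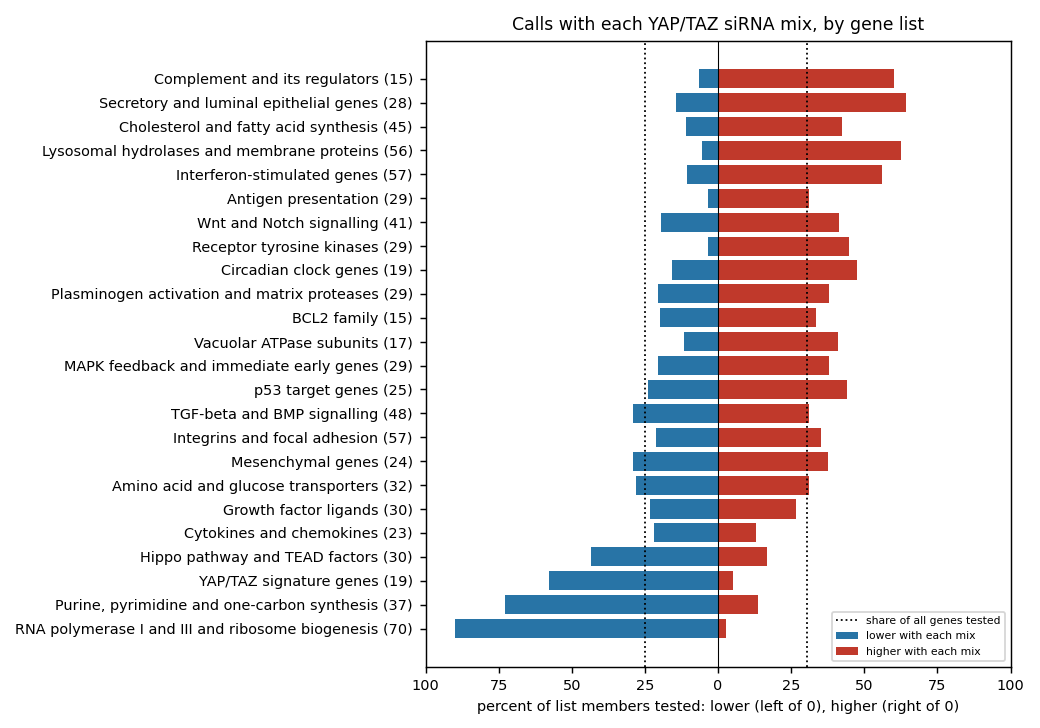
Share of the tested members of each gene list that were called lower (left of 0) or higher (right of 0) with each mix, with the number tested in brackets and the lists in order of their median log2 fold change. Dotted lines give the shares of all genes, 24.8% lower and 30.3% higher. Ribosome biogenesis, with 63 of 70 lower, and nucleotide synthesis, with 27 of 37 lower, lie at the bottom. The complement list lies at the top, followed by the secretory, lipid synthesis, lysosomal and interferon lists. The short lists of cell type markers are not drawn.

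Genes of ribosome biogenesis and of nucleotide synthesis fell with both mixes. Of 70 genes of RNA polymerases I and III and ribosome biogenesis, 63 were lower and 2 higher with each mix (90.0% lower, against 24.8% of all genes), with a median of -1.05. Processing factors had 43 of 44 lower and 0 higher. RRS1, a factor of the large ribosomal subunit, had 5.18 and 5.15 scaled RPM with mix 1 and 6.75 and 5.51 with mix 2, against 24.1 and 27.4 with control siRNA, and NOP16, a nucleolar protein, had 12.5 and 13.7 scaled RPM with mix 1 and 11.98 and 13.3 with mix 2, against 50.04 and 52.4 with control siRNA. No knockdown library reached a control library for RRS1 (-2.12 with mix 1 and -1.91 with mix 2) or NOP16 (-1.89 with mix 1 and -1.94 with mix 2). Of 37 genes of purine, pyrimidine and one-carbon synthesis 27 were lower and 5 higher (median -0.96). All 6 pyrimidine genes were lower with each mix, among them CAD, which catalyses the opening steps of the pathway (-2.15 with mix 1 and -1.69 with mix 2), and CTPS1, the CTP synthase, with 23.5 and 27.4 scaled RPM with mix 1 and 30.1 and 30.6 with mix 2, against 123 and 110.1 with control siRNA. Of 13 purine genes 11 were lower and 2 higher, IMPDH1 (0.93 with mix 1 and 0.47 with mix 2) and ADSSL1 (0.37 with mix 1 and 1.33 with mix 2). The phosphoribosyl pyrophosphate synthetase PRPS2 had 20.9 and 18.4 scaled RPM with mix 1 and 15.1 and 19.6 with mix 2, against 79.6 and 73.3 with control siRNA, and PAICS, a purine enzyme, fell by 2.07 with mix 1 and 1.64 with mix 2.

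Polyamine metabolism showed a fall of synthesis genes beside a rise of a catabolic gene. ODC1, the rate-limiting ornithine decarboxylase, had 66.03 and 63.4 scaled RPM with mix 1 and 35.1 and 44.1 with mix 2, against 245 and 230.3 with control siRNA (-1.86 with mix 1 and -2.56 with mix 2). SAT1, the acetyltransferase that starts polyamine breakdown, had 213 and 196 scaled RPM with mix 1 and 193 and 189 with mix 2, against 50.4 and 50.2 with control siRNA (2.001 with mix 1 and 1.904 with mix 2). The groups of ODC1 and of SAT1 did not overlap, and their directions were opposite. Of 8 polyamine genes 5 were lower and 1, SAT1, higher with each mix. Of 22 amino acid transporters 8 were lower and 5 higher, where 24.8% of all genes were lower and 30.3% higher. SLC7A2, a carrier of cationic amino acids, had 5.95 and 6.26 scaled RPM with mix 1 and 7.52 and 6.75 with mix 2, against 36.2 and 30.1 with control siRNA and fell (-2.26 with mix 1 and -2.07 with mix 2), and SLC7A5 and SLC3A2, which form the LAT1 transporter, were also lower (-1.03 with mix 1 and -2.04 with mix 2 for SLC7A5; -0.86 with mix 1 and -1.54 with mix 2 for SLC3A2). SLC43A2, a carrier of neutral amino acids, rose (1.75 with mix 1 and 2.61 with mix 2).

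Lysosomal genes rose with both mixes. Of 56 tested, 35 were higher and 3 lower with each mix (62.5% higher, against 30.3% of all genes), with a median of 0.48. The hydrolases had 30 of 41 higher and 2 lower, the membrane proteins 5 of 15 higher. CTSD, the aspartic protease cathepsin D, had 2250.3 and 2403 scaled RPM with mix 1 and 2419 and 2514 with mix 2, against 729.9 and 918 with control siRNA. SMPD1, acid sphingomyelinase, had 109 and 108 scaled RPM with mix 1 and 179 and 165 with mix 2, against 41.4 and 44.8 with control siRNA, and CTSO, a cysteine cathepsin, had 12.6 and 11.3 scaled RPM with mix 1 and 9.43 and 11.5 with mix 2, against 2.505 and 2.95 with control siRNA. Each of these 3 lay above both controls in all 4 knockdown libraries (1.51 with mix 1 and 1.59 with mix 2 for CTSD, 1.32 with mix 1 and 1.97 with mix 2 for SMPD1 and 1.798 with mix 1 and 1.62 with mix 2 for CTSO), and CTSD read 2.75 against DMSO. Subunits of the vacuolar ATPase, the proton pump of lysosomes, gave 7 of 17 higher and 2 lower (1 lower without control siRNA replicate 1 or without mix 1 replicate 2), with smaller sizes, for example ATP6V0D1 (0.49 with mix 1 and 0.44 with mix 2). ATP6V1A was called in opposite directions.

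Lipid synthesis genes differed by mix, with a median log2 fold change over 45 genes of 0.81 with mix 1 and 0.05 with mix 2. Such a gap was not particular to this list. With mix 1 and mix 2 the median was 0.71 and 0.04 for antigen presentation and 0.78 and 0.09 for plasminogen activation and matrix proteases. It was 0.54 and 0.05 for Wnt and Notch signalling, 0.47 and -0.15 for MAPK feedback and 0.34 and -0.16 for growth factor ligands. Of 17 genes of fatty acid synthesis 11 were higher and 4 lower with each mix. Of 20 cholesterol enzymes 5 were higher and 1 lower, where 30.3% of all genes were higher and 24.8% lower, and a difference between these branches was not tested. ACSL1, which activates long-chain fatty acids, had 189 and 178 scaled RPM with mix 1 and 134 and 125 with mix 2, against 30.6 and 26.3 with control siRNA (2.65 with mix 1 and 2.15 with mix 2), and ACSS2, which makes acetyl-CoA from acetate, had 93.6 and 104 scaled RPM with mix 1 and 61.03 and 68.3 with mix 2, against 30.9 and 32.3 with control siRNA (1.61 with mix 1 and 1.01 with mix 2). ELOVL7, an elongase, fell, with 1.94 and 2.43 scaled RPM with mix 1 and 5.14 and 4.68 with mix 2, against 13.6 and 12.3 with control siRNA. Every knockdown library lay above both controls for ACSL1 and ACSS2 and below both for ELOVL7. The other 14 cholesterol enzymes had no common call, such as the epoxidase SQLE (0.601 with mix 1 and -1.06 with mix 2).

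Interferon-stimulated, complement and antigen presentation genes were mostly called higher or not called. Of 57 interferon genes 32 were higher and 6 lower with each mix (56.1% higher, against 30.3%), with a median of 0.45. TRIM22, an antiviral TRIM protein, had 23.9 and 22.5 scaled RPM with mix 1 and 35.5 and 32.995 with mix 2, against 4.796 and 4.63 with control siRNA, and OAS1, a sensor of double-stranded RNA, had 7.202 and 6.39 scaled RPM with mix 1 and 8.15 and 7.57 with mix 2, against 0.693 and 1.08 with control siRNA. IRF9, part of the complex that drives these genes, had 60.7 and 59.8 scaled RPM with mix 1 and 70.8 and 64.2 with mix 2, against 19.2 and 21.6 with control siRNA. All 3 were above both controls in each knockdown library (2.08 with mix 1 and 2.62 with mix 2 for TRIM22, 2.05 with mix 1 and 2.24 with mix 2 for OAS1 and 1.52 with mix 1 and 1.68 with mix 2 for IRF9). MX2, a GTPase that restricts viruses, was low, with 3.16 and 3.28 scaled RPM with mix 1 and 1.87 and 2.39 with mix 2, against 0.107 and 0.1204 with control siRNA, and its log2 fold change of 1.703 read 4.47 with edgeR. Of 23 complement genes written, 15 were tested, and 9 of these were higher and 1 lower. CFB, complement factor B, had 34.1 and 33.7 scaled RPM with mix 1 and 55.98 and 58.2 with mix 2, against 10.02 and 9.21 with control siRNA (1.72 with mix 1 and 2.45 with mix 2), and CLU, clusterin, which is also a regulator of complement, had 16.95 and 18.4 scaled RPM with mix 1 and 42.4 and 39.3 with mix 2, against 4.42 and 6.08 with control siRNA (1.59 with mix 1 and 2.76 with mix 2). Against DMSO IRF9 read 2.57 and CFB 3.51, and with a pseudocount of 4 OAS1 read 1.21.

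For antigen presentation 9 of 29 were higher and 1 lower, a share of 31.0% that is near the 30.3% of all genes, and against DMSO 23 were higher. PSMB10, an immunoproteasome subunit, had 89.6 and 97.5 scaled RPM with mix 1 and 98.9 and 98.8 with mix 2, against 54.4 and 59.4 with control siRNA, while TAP2, a subunit of the peptide transporter, fell (-0.73 with mix 1 and -1.85 with mix 2). HLA genes are near-identical copies, so how their shared reads were counted is uncertain. Of 14 written leukocyte markers 5 were among the genes tested, and 4 were higher with each mix. PTPRC and CD3E, defining leukocyte markers, were not among the genes tested. LYZ, lysozyme, had 24.6 and 24.5 scaled RPM with mix 1 and 24.5 and 27.3 with mix 2, against 5.76 and 6.26 with control siRNA, and CD68 had 92.6 and 96.4 scaled RPM with mix 1 and 134 and 150.1 with mix 2, against 60.4 and 61.3 with control siRNA. The summed level of the 5 was 199 to 349 scaled RPM in the knockdown libraries and 131 to 133 in the control libraries. Of 13 fibroblast and endothelial markers 4 were tested and 3 were higher, with sums of 39.1 to 47.6 in the knockdown and 13.6 to 17.9 in the control libraries. PDGFRB had 12.5 and 13.6 scaled RPM with mix 1 and 15.8 and 16.1 with mix 2, against 3.36 and 3.25 with control siRNA, and PECAM1 had 14.1 and 12.9 scaled RPM with mix 1 and 5.82 and 7.66 with mix 2, against 1.599 and 2.17 with control siRNA. Against DMSO PSMB10 read 1.89, LYZ 3.06 and PDGFRB 2.83, and PECAM1 read 1.22 with a pseudocount of 4. The part of such cells or markers in the results above was not tested.

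Secretory and luminal epithelial genes that could be tested were mostly higher. Of 49 written, 28 were tested, and 18 of these were higher and 4 lower with each mix (64.3% higher, against 30.3%), with a median of 0.81. Genes near 0 with control siRNA can pass the filter through the knockdown libraries, and can then hardly be called lower. The part of the filter in this share was not tested. The 7 tested genes of secreted products and the secretory pathway were all higher, AGR2, CLU, MUC1, SPINK4, TFF1, TFF2 and TFF3. TFF2, a trefoil peptide, had 48.5 and 45.1 scaled RPM with mix 1 and 75.3 and 72.97 with mix 2, against 7.25 and 7.46 with control siRNA, and SPINK4, a protease inhibitor of goblet cells, had 36.7 and 33.2 scaled RPM with mix 1 and 134 and 145 with mix 2, against 5.06 and 5.84 with control siRNA. Both rose more with mix 2 (2.52 with mix 1 and 3.17 with mix 2 for TFF2; 2.48 with mix 1 and 4.45 with mix 2 for SPINK4), and SPINK4 read 5.26 against DMSO. Among the factors, SPDEF, known for goblet cell differentiation, rose by 2.09 with mix 1 and 2.38 with mix 2, and ELF3 by 1.75 with mix 1 and 1.98 with mix 2. FOXA1 passed at a low level, with 1.01 and 1.36 scaled RPM with mix 1 and 1.06 and 1.38 with mix 2, against 0.266 and 0.301 with control siRNA, and its log2 fold change of 0.78 read 2.07 with edgeR and 0.49 against DMSO. Keratins and junction genes had 7 of 14 higher and 3 lower, with KRT19 at 1.72 with mix 1 and 1.36 with mix 2 and KRT80 at -1.35 with mix 1 and -2.64 with mix 2.

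Mesenchymal genes did not fall as a group, with 9 of 24 higher and 7 lower with each mix (37.5% and 29.2%, against 30.3% and 24.8% of all genes). The factor SNAI2 (Slug) had 4.45 and 5.75 scaled RPM with mix 1 and 3.95 and 4.41 with mix 2, against 13.6 and 12.7 with control siRNA and fell (-1.22 with mix 1 and -1.45 with mix 2), and TAGLN, a smooth muscle actin-binding protein, had 2.95 and 3.96 scaled RPM with mix 1 and 5.18 and 5.51 with mix 2, against 13.002 and 14.8 with control siRNA (-1.75 with mix 1 and -1.23 with mix 2). CAV1, the main coat protein of caveolae, had 363 and 367 scaled RPM with mix 1 and 358 and 379 with mix 2, against 791 and 710.3 with control siRNA and fell (-1.04 with mix 1 and -1.02 with mix 2). For SNAI2, TAGLN and CAV1 the groups did not overlap, and SNAI2 read -2.34 against DMSO. VIM (-0.16 with mix 1 and 0.24 with mix 2) and ZEB1 (0.02 with mix 1 and 0.17 with mix 2) were not called in 1 direction with each mix. The median of the list was 0.07, as for all genes, and turned to -0.17 with a filter at 5 scaled RPM, -0.0081 with quantile normalization and -0.0046 against DMSO.

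Cell death genes were called in both directions. Of 15 BCL2 family genes 5 were higher and 3 lower with each mix, where 30.3% of all genes were higher and 24.8% lower. Of the 8 BH3-only members, which promote apoptosis, 4 were higher and 0 lower. Of the 4 survival members 0 were higher and 2 lower, and of the 3 effectors 1 was higher and 1 lower. A difference between these classes was not tested. BMF had 97.4 and 96.1 scaled RPM with mix 1 and 57.04 and 56.6 with mix 2, against 8.05 and 10.6 with control siRNA, and BBC3 (PUMA) had 21.5 and 25.3 scaled RPM with mix 1 and 29.3 and 28.4 with mix 2, against 5.12 and 6.68 with control siRNA. BMF and BBC3 lay above both controls in every knockdown library (3.25 with mix 1 and 2.497 with mix 2 for BMF; 1.83 with mix 1 and 2.12 with mix 2 for BBC3), while BCL2 lay below. Against DMSO BMF read 5.23 and TP53INP1 3.79. Of 25 p53 target genes 11 were higher and 6 lower (44.0% and 24.0%, against 30.3% and 24.8% of all genes). TP53INP1 rose, with 105 and 100.6 scaled RPM with mix 1 and 60.3 and 61.4 with mix 2, against 20.5 and 21.7 with control siRNA, but ZMAT3, an RNA-binding protein, fell, with 9.99 and 10.3 scaled RPM with mix 1 and 9.94 and 8.95 with mix 2, against 40.4 and 37.6 with control siRNA (-1.84 with mix 1 and -1.94 with mix 2). MDA-MB-231 carries a mutant p53. CDKN1A, the inhibitor p21, was higher with each mix but far more with mix 1 (1.94 with mix 1 and 0.35 with mix 2).

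Clock genes gave 9 of 19 higher and 3 lower with each mix (47.4% and 15.8%, against 30.3% and 24.8% of all genes). ARNTL2, a partner of CLOCK, had 33.9 and 33.2 scaled RPM with mix 1 and 27.6 and 29.4 with mix 2, against 117 and 112 with control siRNA (-1.74 with mix 1 and -1.97 with mix 2). The output factor DBP had 6.92 and 7.54 scaled RPM with mix 1 and 19.7 and 18.4 with mix 2, against 2.72 and 1.87 with control siRNA (1.33 with mix 1 and 2.62 with mix 2), and the repressor BHLHE41 had 10.2 and 9.54 scaled RPM with mix 1 and 12.996 and 11.6 with mix 2, against 2.56 and 2.65 with control siRNA (1.59 with mix 1 and 1.88 with mix 2). ARNTL2 lay below both controls, and DBP and BHLHE41 above them, in all 4 knockdown libraries. The labels give no time of day for any library.

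Genes that followed both YAP/TAZ mixes were then read in JQ1 against DMSO, a comparison that shares no library with the knockdown. After JQ1, 4968 of all genes were lower (36.3%) and 5136 higher (37.6%). Of the 478 genes at least 2-fold lower outside the proliferation list, 414 were lower (86.6%), 31 higher and 33 not called after JQ1, with a median log2 fold change of -0.94. Those 414 are 8.33% of the genes lower after JQ1. The lower genes include the siRNA targets YAP1 and WWTR1, both lower after JQ1. They also include CTGF, CYR61 and ANKRD1, all higher after JQ1. Of the 776 genes at least 2-fold higher, 478 were higher (61.6%), 132 lower (17.01%) and 166 not called, and the 478 are 9.31% of the genes higher after JQ1. The difference between the shares of the lower and the higher genes was not tested.

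Single genes are given next. FAT3 had 1.97 and 2.001 scaled RPM with JQ1, against 68.6 and 63.9 with DMSO, a log2 fold change of -4.49 (limma adjusted p = 1.65e-17). PLAU (-2.12), BCL2 (-2.22) and AEN (-2.65) were also lower with JQ1. DKK1 rose instead, with 2069 and 2059.6 scaled RPM with JQ1, against 955 and 881 with DMSO (1.17, limma adjusted p = 1.36e-11), and so did AMOTL2 (0.64) and F3 (0.28), as did the classic readouts CTGF (2.28), CYR61 (0.75) and ANKRD1 (1.26). EFEMP1 (0.04, limma adjusted p = 0.658) and TBC1D2 (0.11, limma adjusted p = 0.132) were not called with JQ1. GLTP fell slightly, with 112 and 117 scaled RPM with JQ1, against 137 and 132 with DMSO. Among the genes that rose with the knockdown, AGR2 (1.51), RASD1 (1.36) and PLEKHB1 (1.94) rose with JQ1, NOX5 fell (-1.099), and GDF15 (-0.12, limma adjusted p = 0.413) and TFF3 (-0.16, limma adjusted p = 0.239) were not called. Differences between the knockdown effect and the JQ1 effect were not tested.

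**Figure D4:**
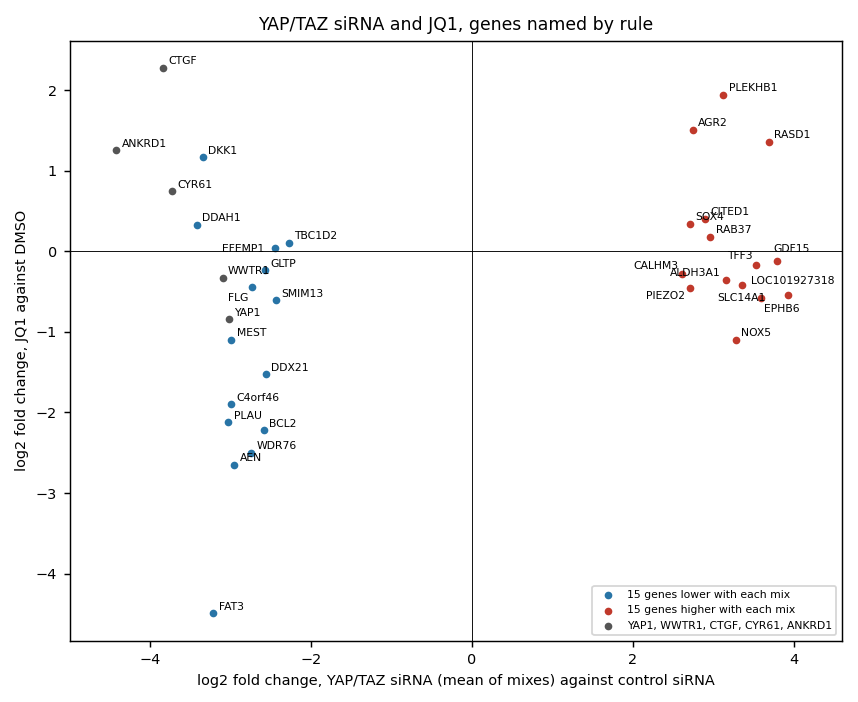
Log2 fold change after YAP/TAZ siRNA (mean of the mixes, against control siRNA) on the x axis and after JQ1 (against DMSO) on the y axis for the 15 lower genes, the 15 higher genes and the 5 genes that check the labels. FAT3, AEN and WDR76 lie low on both axes, while CTGF, ANKRD1, DKK1 and CYR61 were lower with the knockdown and higher with JQ1.

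BRD siRNA shares its control libraries with the YAP/TAZ comparison, so its values are only set beside those above. They are for the mean of BRD mix A and mix B. WDR76 was at -2.52 with BRD siRNA, BCL2 at -2.33 and FLG at -2.89, where YAP/TAZ siRNA gave -2.74, -2.59 and -2.73 for the mean of the mixes. TBC1D2 was at -0.06 (limma adjusted p = 0.3003) with BRD siRNA. Its BRD mixes lay on either side of the control, with a mean of 86.9 scaled RPM for mix A and 54.5 for mix B. The mean with control siRNA was 72.02. NOX5 (-2.28), TIMP4 (-2.76) and LYZ (-1.52) were lower with BRD siRNA and higher with YAP/TAZ siRNA.

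The mixes disagreed for 8 genes at 2-fold or more (0.0585% of all tested). GPR56, an adhesion G protein-coupled receptor, had 134 and 140.1 scaled RPM with mix 1 and 9.64 and 11.98 with mix 2, against 40.8 and 46.4 with control siRNA, and SLC5A3, a myo-inositol transporter, had 208 and 189.9 scaled RPM with mix 1 and 20.8 and 20.5 with mix 2, against 62.6 and 62.5 with control siRNA. TMEM158 had 129 and 134 scaled RPM with mix 1 and 16.1 and 14.96 with mix 2, against 32.1 and 33.9 with control siRNA. For these 3 genes mix 1 lay above and mix 2 below both control libraries. LIFR, the receptor of leukaemia inhibitory factor, had 255 and 252 scaled RPM with mix 1 and 39.9 and 36.9 with mix 2, against 129.7 and 114 with control siRNA, and TNC, the matrix protein tenascin C, had 131 and 135 scaled RPM with mix 1 and 27.6 and 32.4 with mix 2, against 66.8 and 63.6 with control siRNA, in the same order. PGM2L1 was the 1 gene of the 8 with mix 1 below and mix 2 above the controls, with 11.6 and 9.97 scaled RPM with mix 1 and 76.6 and 72.002 with mix 2, against 23.4 and 24.2 with control siRNA. CCDC50 and ATP6V1A complete the 8 (1.04 with mix 1 and -1.09 with mix 2 for CCDC50; 1.02 with mix 1 and -1.07 with mix 2 for ATP6V1A). No common direction exists for these genes, and they enter none of the counts of genes called with each mix.

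**Figure D5:**
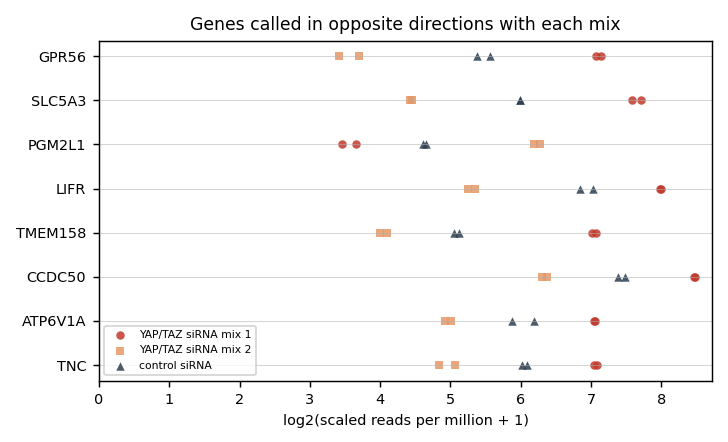
Values of the 8 genes called at least 2-fold in opposite directions, as log2(scaled RPM + 1), in the 2 libraries each of YAP/TAZ siRNA mix 1 (circles), mix 2 (squares) and control siRNA (triangles). For 7 of the 8 mix 1 lies right of the controls and mix 2 left, and for PGM2L1 the order is turned.

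At the 2-fold limit the choice of genes is a matter of small steps. GNL3 (-1.0002 with mix 1 and -1.28 with mix 2) and PRKRIR (-1.34 with mix 1 and -1.0003 with mix 2) were just inside it on the lower side, and ANAPC1 (-0.9998 with mix 1 and -1.504 with mix 2) and C9orf40 (-0.998 with mix 1 and -1.02 with mix 2) just outside. NQO1 (1.001 with mix 1 and 2.05 with mix 2) and LOC100505817 (1.24 with mix 1 and 1.001 with mix 2) were just inside on the higher side, and TDRD6 (1.09 with mix 1 and 0.999 with mix 2) and NR1H3 (0.999 with mix 1 and 1.74 with mix 2) just outside.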

How the data were processed

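The deposited table holds 13734 genes in 14 libraries, 2 for each of 7 groups. Tools named in the submitters' processing notes are CASAVA 1.8.4, TopHat2 2.0.5, HTSeq 0.6.0, edgeR and R 3.0.0, with the genome build hg19, and the sources used here give neither their order nor the strand setting. The deposited values are a scaled signal made by the authors, RPM of an effective library size. The columns sum to 903627 to 1098052, unlike plain CPM, and the factors behind them equal TMM factors. The plan assumed CPM, and the test for such units was kept. All values came out as whole reads (100%, tolerance 0.01). The libraries held 15741695 to 37311326 reads (median 23539829), where 1 read was worth 0.0276 to 0.0602 scaled RPM.

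Genes reaching 1 in 2 or more libraries (13674) were tested as log2(value + 1) in limma 3.58.1 under R 4.3.3, over all 14 libraries in 7 groups, with a mean-variance trend (7 residual and 13.2 prior degrees of freedom). Two-sided p-values had Benjamini-Hochberg adjustment over all genes, at 0.05. Replicates of a group differed by a chi-square of 3.44 to 10.6 per gene, so none was a copy. The model was tested on simulated data. Named are the 15 lower and 15 higher genes with the largest log2 fold change in the weaker mix, among genes called with each mix, not overlapping, outside the proliferation list and with a mean of at least 10 in the higher group, up to 4 members of each list by the same ranking, and genes at the limits. Other list members named in the text were chosen after their values were seen. The members, the 27 gene lists and the proliferation list (464 genes tested) were chosen with earlier results of these data known. Alternatives were the pseudocounts 0.25 and 4, a filter at 5 or none, other scalings, edgeR 4.0.16 and DESeq2 1.42.0 on the recovered reads, no variance trend, a replicate block, fewer groups, DMSO as control, and each library left out. Some members of the gene lists are not reported here by name.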

Additional observations from a re-analysis of the deposited data

Results flagged for a closer look

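The 8 genes called at least 2-fold in opposite directions with the mixes were taken up because the test of mix 1 against mix 2 passed. Every library of one mix lay above, and every library of the other below, both controls. Mix 1 minus mix 2 on the log2 scale was 3.55 for GPR56, 3.21 for SLC5A3, 3.001 for TMEM158, 2.69 for LIFR, 2.13 for CCDC50, 2.12 for TNC and 2.09 for ATP6V1A, and it was -2.68 for PGM2L1. The limma adjusted p of these differences lay between 1.26e-18 for TMEM158 and 6.46e-15 for TNC. Because the genes were chosen for 2-fold calls in opposite directions, a large difference between the mixes is given by the choice. These p-values are therefore no separate evidence. The siRNA sequences were not at hand, and effects of a mix on other transcripts and effects of the knockdown cannot be told apart for them.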

How the results depend on the processing

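Of 144 named genes, each tested under up to 20 alternatives, only CSF2 turned its direction, at 0.025 (limma adjusted p = 0.852) with DMSO as control. A filter at 5 left out 7 of them. Most named genes were chosen with all knockdown libraries on one side of both controls. For these, leaving out a library or changing the pseudocount or filter could not turn the direction. Unchanged directions under those settings are thus given by the choice. The number of genes at least 2-fold higher with each mix was 777, and it read 403 with a pseudocount of 4, 1314 with edgeR, 1166 with DESeq2 and 1544 with DMSO as control. Outside the proliferation list it was 776, with 402 at a pseudocount of 4, 1312 with edgeR and 1537 with DMSO. At least 2-fold lower genes numbered 765, or 1287 with DMSO, and outside the proliferation list 478, or 972 with DMSO. Of the lower genes 414 were also lower after JQ1, or 820 with DMSO as control. Of the higher genes 478 were also higher after JQ1, or 249 with a pseudocount of 4, 740 with edgeR and 957 with DMSO. With DMSO as control the knockdown and JQ1 comparisons share the DMSO libraries. The overlaps of 820 and 957 genes are thus partly built in and cannot be read as independent agreement. EdgeR and DESeq2 use no pseudocount of 1 and so give larger changes to low genes, and for the DMSO values the cause was not tested. Leaving out 1 library gave 713 to 857 higher and 731 to 809 lower genes, 711 to 855 and 454 to 519 outside the proliferation list, 3745 to 3964 and 3133 to 3295 at any size, and 426 to 540 and 390 to 446 for the genes shared with JQ1. Deviations of libraries with the same replicate number correlated weakly or not at all. The correlation was 0.0807 for mix 1 and mix 2, 0.254 for mix 1 and control siRNA and -0.0242 for mix 2 and control siRNA. Whether the replicate numbers pair the libraries was not tested. With a replicate block 779 genes were at least 2-fold higher and 765 lower, and all 777 and 765 genes stayed called. The median log2 fold change of all genes lay between 0.0138 and 0.117 over these settings. For cytokines and growth factor ligands the sign of the list median changed between settings. With 2 libraries a group, 2 siRNA mixes and 1 control siRNA, effects of an siRNA mix itself were not separated, and genes at a few reads are imprecise.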
